A study of Mus musculus with 8 samples.

Results

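Elastic fibres and the lysyl oxidases that cross-link them are described here through 10 genes, chosen by symbol, of the 21878 genes in a deposited table of mouse RNA sequencing. They are the elastin gene Eln, the fibrillin genes Fbn1 and Fbn2, the assembly genes Fbln5 and Emilin1, and the enzyme genes Lox, Loxl1, Loxl2, Loxl3 and Loxl4. The 8 libraries carry the label of pulmonary endothelial cells taken from mouse lung, 4 of them with the treatment label Ad-KLK8 and 4 with Ad-control. The series concerns kallikrein-related peptidase 8, a secreted serine protease, and the lung endothelium in endotoxemic injury. The labels give no strain, age, dose or time and do not expand Ad. Nothing states that the 4 replicates of a group were grown or dissected apart, and the p-values therefore reflect the scatter among these libraries alone, which may be technical.

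An elastic fibre has a core of cross-linked tropoelastin laid down on a scaffold of fibrillin microfibrils. Fibulin-5 brings tropoelastin to the microfibril and to the cross-linking enzymes, and Emilin-1 sits where elastin and microfibrils meet. Lysyl oxidases are copper-dependent amine oxidases that turn lysines of tropoelastin and of fibrillar collagens into reactive aldehydes, from which the cross-links form. In lung the fibres give recoil to airways, alveolar walls and vessels, and they are made by fibroblasts, smooth muscle cells, mesothelium and endothelium.

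The family members share a histidine-rich copper site near the end of the protein. Its coding sequence is compared here for Loxl1, Loxl2, Loxl3 and Loxl4, and that of Lox is not shown. The 33 coding bases below come from GENCODE M21 transcripts, with the histidine codons in capitals, and are shown because these related genes gave different results. Each stretch is spliced from neighbouring exons in build GRCm38: exons 3 and 4 of Loxl1 on the minus strand (chr9:58293720-58294381), exons 10 and 11 of Loxl2 on the plus strand (chr14:69682316-69689037), exons 10 and 11 of Loxl3 on the plus strand (chr6:83049995-83050125), and exons 11 and 12 of Loxl4 on the minus strand (chr19:42598807-42599899).
Loxl1: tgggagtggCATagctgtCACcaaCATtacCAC
Loxl2: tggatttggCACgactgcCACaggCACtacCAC
Loxl3: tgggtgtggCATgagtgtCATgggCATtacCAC
Loxl4: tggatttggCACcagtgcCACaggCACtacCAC
Loxl2 and Loxl4 differed at 2 of the 33 bases, and Loxl1 differed from Loxl4 at 12. Loxl3 differed from each of the other 3 at 8 bases. Over whole transcripts, no stretch of 50 bases in any of the 10 genes occurred in the transcripts of another of them. The genome build given with the series is a human one although the symbols are mouse, so these positions belong to the reference and not to the deposited table.

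Klk8 itself, which the treatment label names, did not part the groups. It had 1159, 3263, 1354 and 1276 RPKM in Ad-KLK8 libraries 1 to 4, against 1135, 1403, 1232 and 1422 RPKM in Ad-control libraries 1 to 4. RPKM are reads scaled to gene length and to the size of the library, so levels can be compared between genes. The difference in mean log2(RPKM + 1) was 0.31 (two-sided exact permutation p = 0.657, of which 0.0286 is the smallest possible). Without library Ad-KLK8 2 it was −0.04 (exact permutation p = 0.771), so the sign turned with that library, and every direction given here rests on the labels. Library Ad-KLK8 2 stood apart from the rest of its group: a chi-square of its reads against each of the other 3 gave 17.98 to 19.58 per degree of freedom, against 2.12 to 2.63 among those 3. Among Ad-control libraries the closest pair was 1 and 3, at 2.45, and the other pairs gave 6.32 to 10.5. Gene-assigned reads numbered 17785884 to 18702922 in Ad-KLK8 libraries and 15771803 to 16761367 in Ad-control libraries. Endothelial markers were low: 8 of 12 had a mean under 0.5 RPKM, Cdh5 and Cldn5 among them, and none was at 0 reads in every library. Their summed level was 14.4 to 17.8 RPKM in Ad-KLK8 libraries, against 26.1 to 28.3 RPKM in Ad-control libraries. Most of that sum was Esam, an adhesion molecule gene, at 11.8 to 14.2 RPKM in Ad-KLK8 libraries and 19.7 to 21.6 RPKM in Ad-control libraries. All 4 tested endothelial markers were lower, beside 52.0% of all tested genes. After median-of-ratios scaling 3 were lower, beside 37.2% of genes. In bulk samples, fewer cells of a type and less RNA per cell cannot be told apart.

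All 10 genes passed the filter of a mean of at least 0.5 RPKM, and 9 passed an adjusted p of 0.05 with limma, 6 of them higher and 3 lower in Ad-KLK8 libraries. Over all 11998 tested genes 77.7% passed, 25.7% higher and 52.0% lower, so the count of called members stands beside a background in which most genes passed. The groups did not overlap for 8 of the 10, against 72.2% of all tested genes. Measured as log2(RPKM + 1), a called change of 2-fold or more was reached by Loxl1 and Loxl4 alone, against 12.2% of tested genes. The median difference was 0.31 for the members and −0.19 for all tested genes on the log2(RPKM + 1) scale. Median-of-ratios scaling, which brings the median of all genes to 0.02, raised the members' median to 0.54 and gave 7 higher and 2 lower, against 40.0% and 37.2% of genes.

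**Figure D1:**
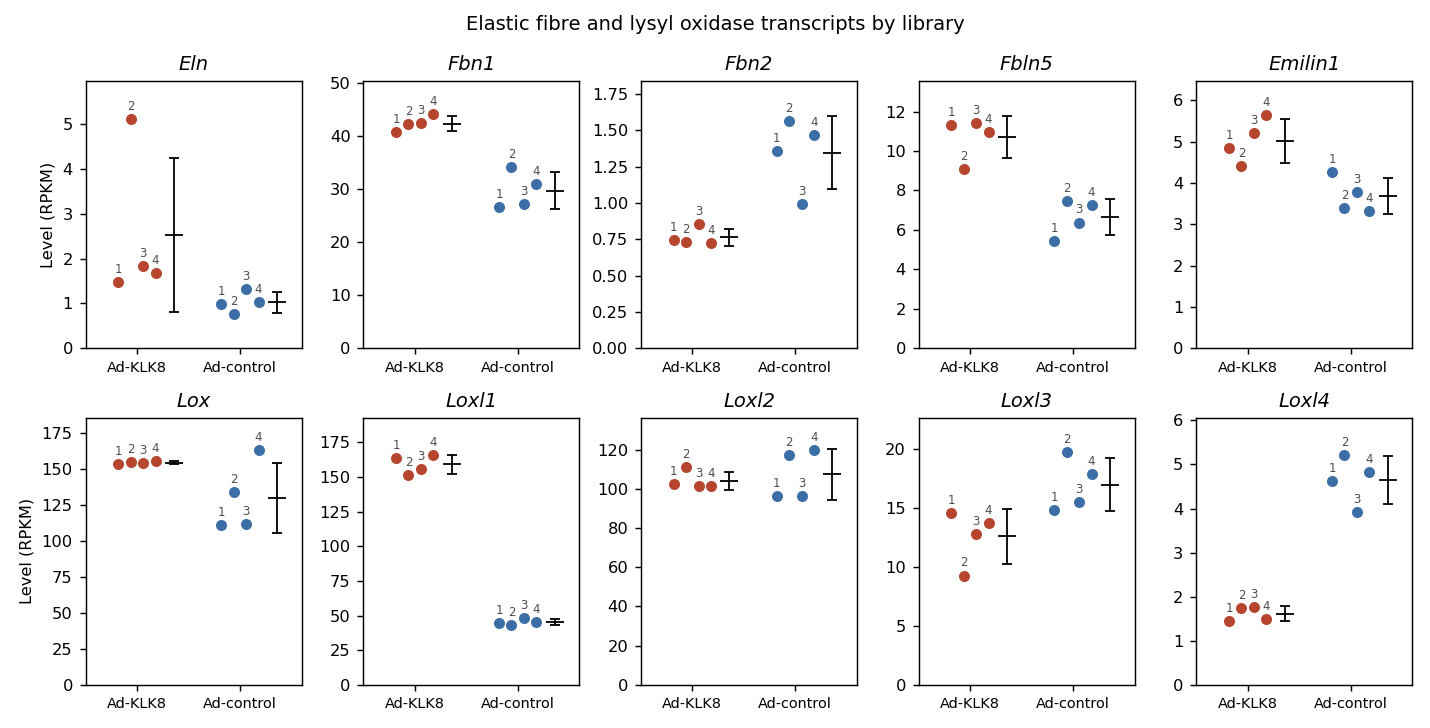
Level of each of the 10 transcripts (RPKM, linear axes from 0, a scale of its own per panel) in the 4 Ad-KLK8 libraries (red) and the 4 Ad-control libraries (blue), numbered by replicate, with mean and SD in black. Loxl1 and Loxl4 are far apart in opposite directions, Lox and Loxl2 overlap, and the Eln value of Ad-KLK8 2 stands at 5.11 RPKM above 1.49 to 1.82 RPKM in the other 3.

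The core gene Eln was among the lowest of the 10. It had 1.49, 5.11, 1.82 and 1.68 RPKM in Ad-KLK8 libraries 1 to 4, and 0.995, 0.759, 1.32 and 1.03 RPKM in Ad-control libraries 1 to 4. Every Ad-KLK8 library was above every Ad-control library, and library Ad-KLK8 2 was far above the rest. These levels rest on 117 to 387 reads per library labelled Ad-KLK8 and on 51 to 92 per library labelled Ad-control. The log2(RPKM + 1) difference was 0.70 ± 0.25 (SE, adjusted p = 0.0232). It was 0.40 ± 0.10 without library Ad-KLK8 2 (adjusted p = 0.00387), and without Ad-control 2 it was 0.64 and lost the call (adjusted p = 0.0601). Klk8 and Eln were both highest in the same library, and the part of that library's difference from its group in the Eln result was not otherwise tested.

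Of the microfibril genes, Fbn1 rose and Fbn2 fell. Fibrillin-1, the main fibrillin of adult tissue, had transcript levels of 40.8, 42.3, 42.5 and 44.2 RPKM in Ad-KLK8 libraries, against 26.6, 34.2, 27.2 and 30.9 RPKM in Ad-control libraries. The groups did not overlap, and the ratio of the means was 1.43 (log2 difference 0.51 ± 0.07 SE, adjusted p = 7.83e-05). Fibrillin-2, the fibrillin more abundant in development, was far less abundant, at 0.744, 0.728, 0.853 and 0.726 RPKM in Ad-KLK8 libraries and 1.36, 1.57, 0.990 and 1.47 RPKM in Ad-control libraries. Its difference was −0.41 ± 0.08 (adjusted p = 0.00115), and the call was lost after quantile normalization, where it was −0.07 (adjusted p = 0.456). Since a pseudocount of 1 shrinks so low a gene, the voom fit to recovered reads gave −0.80 for Fbn2 and 1.11 for Eln on the log2 scale. Fbn2 made up 1.77% ± 0.15 of summed fibrillin RPKM in Ad-KLK8 libraries and 4.32% ± 0.58 in Ad-control libraries (SD, n = 4). Such a share within a library does not depend on a scaling factor between libraries. The log2 ratio of Fbn2 to Fbn1, taken on RPKM + 1, averaged −4.62 ± 0.07 in Ad-KLK8 libraries and −3.71 ± 0.12 in Ad-control libraries (SD, n = 4; two-sided exact permutation p = 0.0286, the smallest possible, and 0.0429 adjusted over 3 ratios). For Eln to Fbn1 the same ratio was −3.73 ± 0.61 in Ad-KLK8 libraries and −3.92 ± 0.31 in Ad-control libraries (SD, n = 4; exact permutation p = 0.714). Without library Ad-KLK8 2 that small difference of 0.20 became −0.11.

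The assembly genes Fbln5 and Emilin1 both rose. Fbln5 lay between 9.11 and 11.4 RPKM in Ad-KLK8 libraries and between 5.46 and 7.45 RPKM in Ad-control libraries, and the groups did not overlap (log2 difference 0.62 ± 0.10 SE, adjusted p = 0.000141). Emilin1 lay between 4.40 and 5.66 RPKM in Ad-KLK8 libraries and between 3.32 and 4.27 RPKM in Ad-control libraries, a narrow gap (0.36 ± 0.08 SE, adjusted p = 0.00234). Ad-KLK8 2 was the lowest of its group for both genes, in contrast to Eln.

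The enzyme genes held the largest rise and the largest fall of the 10. Loxl1, whose product cross-links elastin and is bound by fibulin-5, had 164, 151, 156 and 166 RPKM in Ad-KLK8 libraries, against 44.7, 43.3, 48.4 and 45.4 RPKM in Ad-control libraries. The lowest Ad-KLK8 library was well above the highest Ad-control library, with a ratio of means of 3.50. Its log2 difference of 1.79 ± 0.05 (SE, adjusted p = 1.02e-09) ranked 44 among the rises of all 11998 tested genes. Loxl4, the scarcest family member, had 1.44, 1.75, 1.76 and 1.49 RPKM in Ad-KLK8 libraries and 4.63, 5.22, 3.91 and 4.84 RPKM in Ad-control libraries. All Ad-KLK8 libraries lay below all Ad-control libraries (log2 difference −1.11 ± 0.08 SE, adjusted p = 4.56e-07), and the voom fit to recovered reads gave −1.52. Both calls held in the alternatives that tested these genes, Loxl4 being left out only by a filter at 5 RPKM.

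Lox and Loxl2 were abundant in both groups and overlapped between them. Lox, the founding enzyme of the family, had 153.1, 154.7, 153.6 and 155.2 RPKM in Ad-KLK8 libraries, against 111.1, 133.7, 111.3 and 162.6 RPKM in Ad-control libraries. The Ad-KLK8 values were nearly equal, while the Ad-control values were spread and the fourth was above every Ad-KLK8 library. The difference of 0.27 ± 0.10 (SE, adjusted p = 0.0382) was a call near the threshold. Without Ad-control 4 it was 0.38 (adjusted p = 0.000443), and without any other library it was 0.20 to 0.29 and no longer passed (adjusted p = 0.0504 to 0.109 over the 7 fits). It was also lost without filter (adjusted p = 0.0674), after rescaling to TPM (0.0797), after quantile normalization (0.0653), and with closely similar libraries averaged (0.248). Loxl2, which acts mainly on collagen IV and other matrix collagens, had 103, 111, 102 and 101 RPKM in Ad-KLK8 libraries and 96.4, 118, 96.4 and 120 RPKM in Ad-control libraries. Its difference of −0.04 ± 0.08 (SE, 95% interval −0.21 to 0.13) did not pass (adjusted p = 0.653), but after median-of-ratios scaling it was 0.20 and passed (adjusted p = 0.0398). Its direction therefore turns with the scaling. Ad-control 2 and 4 were the highest Ad-control libraries for Lox, Loxl2 and Loxl3, and also for Fbn1, Fbn2, Fbln5 and Loxl4. They were not so for Eln, Emilin1 and Loxl1.

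Loxl3, an oxidase with scavenger receptor domains like those of Loxl2 and Loxl4, lay between 9.27 and 14.6 RPKM in Ad-KLK8 libraries and between 14.9 and 19.7 RPKM in Ad-control libraries. The groups only just failed to overlap (−0.41 ± 0.13 SE, adjusted p = 0.0126). The call was lost after median-of-ratios (−0.18, adjusted p = 0.234), upper-quartile (−0.18, 0.232) and quantile scaling (−0.19, 0.220).

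**Figure D2:**
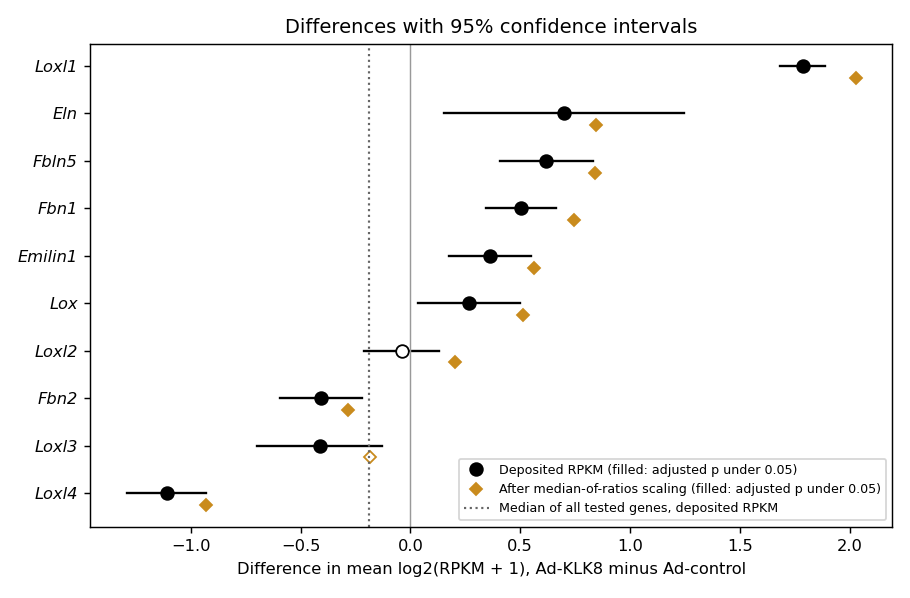
Difference in mean log2(RPKM + 1), Ad-KLK8 minus Ad-control, for each gene with its 95% interval (black circles) and after median-of-ratios scaling (diamonds); filled symbols have an adjusted p under 0.05 and the dotted line is the median of all tested genes at −0.19. Loxl1 at 1.79 and Loxl4 at −1.11 are the extremes, and Loxl2 changes sign between the scalings.

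The make-up of the oxidase transcripts shifted towards Loxl1. Loxl1 made up 36.9% ± 1.2 of the summed RPKM of the 5 enzymes in Ad-KLK8 libraries and 15.1% ± 2.2 in Ad-control libraries (SD, n = 4). Lox made up 35.7% ± 0.48 in Ad-KLK8 libraries and 42.4% ± 2.7 in Ad-control libraries, and Loxl2 24.1% ± 1.2 in Ad-KLK8 libraries and 35.4% ± 1.1 in Ad-control libraries. Loxl3 made up 2.91% ± 0.52 in Ad-KLK8 libraries and 5.59% ± 0.44 in Ad-control libraries, and Loxl4 0.374% ± 0.044 in Ad-KLK8 libraries and 1.53% ± 0.16 in Ad-control libraries. The ranges of the groups did not overlap for any of the 5 shares, which depend on one another because they add to the whole. The sum itself was 425 to 438 RPKM in Ad-KLK8 libraries and 272 to 350.5 RPKM in Ad-control libraries. The log2 ratio of Lox to Loxl1 averaged −0.04 ± 0.06 in Ad-KLK8 libraries and 1.48 ± 0.29 in Ad-control libraries (SD, n = 4; two-sided exact permutation p = 0.0286, adjusted 0.0429). In order of level, Ad-KLK8 libraries had Loxl1 and Lox first, with overlapping ranges, and Loxl2 apart from them. Ad-control libraries had Lox and Loxl2 first, with overlapping ranges, and Loxl1 apart from them.

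**Figure D3:**
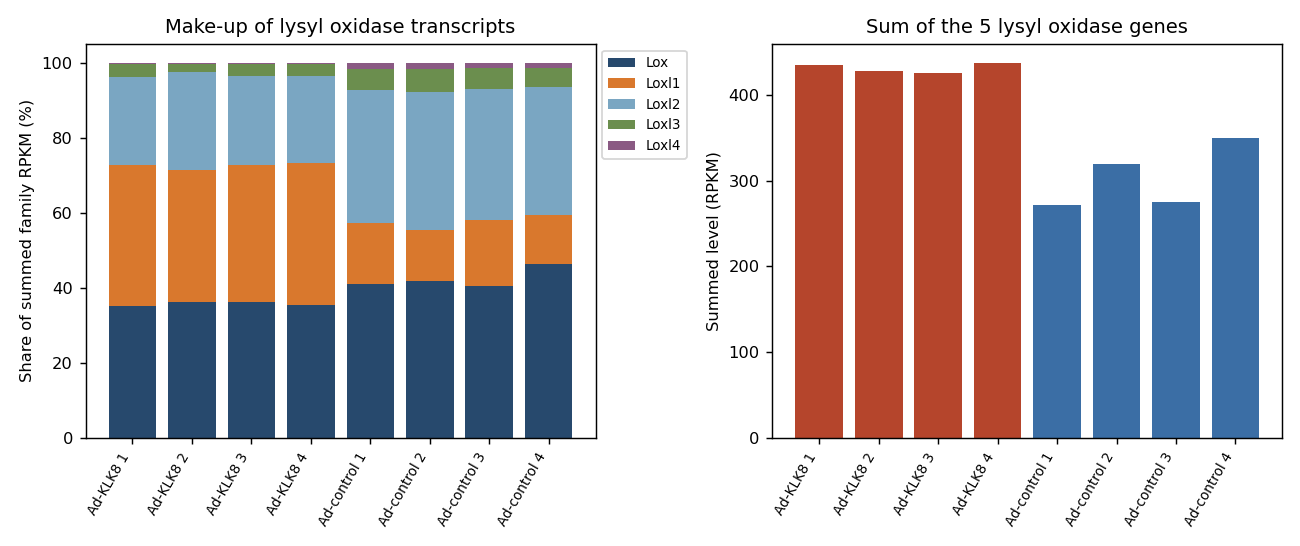
Left, share of each lysyl oxidase gene in the summed RPKM of the 5 genes (%), per library; right, that sum in RPKM. Loxl1 fills 35.3% to 37.9% of each Ad-KLK8 bar and 12.9% to 17.6% of each Ad-control bar, and the Ad-control sums are the more uneven.

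Upstream sequence was shown for Emilin1, which rose, and Loxl4, which fell, to set a higher and a lower member side by side. RefSeq windows for build GRCm38.p6 matched 4 of the 10 genes (Fbn1, Fbln5, Emilin1 and Loxl4). The 250 bases before the start are printed from chr5:30913536-30913785 on the plus strand for Emilin1 and from chr19:42612807-42613056 on the minus strand for Loxl4. Capitals mark matches to the Sp1 GC box GGGCGG and to the Smad element CAGAC, each searched on both strands.
Emilin1: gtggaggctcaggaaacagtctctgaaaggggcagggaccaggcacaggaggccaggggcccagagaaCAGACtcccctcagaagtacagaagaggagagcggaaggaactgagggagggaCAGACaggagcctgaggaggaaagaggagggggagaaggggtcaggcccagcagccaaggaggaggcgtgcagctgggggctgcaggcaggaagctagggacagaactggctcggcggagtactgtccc
Loxl4: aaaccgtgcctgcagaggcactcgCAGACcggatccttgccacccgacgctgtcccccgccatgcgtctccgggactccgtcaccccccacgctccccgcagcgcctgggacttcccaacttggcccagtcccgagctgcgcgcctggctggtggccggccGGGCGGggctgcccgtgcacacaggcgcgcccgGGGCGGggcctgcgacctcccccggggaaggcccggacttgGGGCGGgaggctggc
The window of Emilin1 held 2 Smad elements, beginning 182 and 129 bases before the start, and no GC box. The Loxl4 window held 3 GC boxes, beginning 89, 56 and 15 bases before the start, and 1 Smad element at 226. A GC box was present in 32.7% and a Smad element in 42.2% of all 32851 windows of this length. Neither window held the TATA box TATAAA, which 12.4% of all windows hold, or the box CCAAT, held by 33.8%. Neither held the AP-1 site TGANTCA, found in 6.7% of windows, or the hypoxia response core ACGTG, found in 16.6%, and no matches overlapped. The other matched windows, of Fbn1 and Fbln5, belong to genes that also rose. The Fbn1 window held 1 GC box, at 185, and no Smad element. At the first Fbln5 start there were 2 GC boxes, at 221 and 48, and no Smad element. The second Fbln5 start had 2 Smad elements, at 199 and 15, and no GC box. GC boxes were thus found before genes that rose as well as before Loxl4. These are matches of letters and say nothing of binding.

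Genes that build microfibrils and fibres around the 10 were counted from a list of 25, of which 21 were tested. The counts of this and the next 4 lists stand beside 25.7% higher and 52.0% lower of all tested genes, or 40.0% and 37.2% after median-of-ratios scaling. Of the 21, 12 rose, 4 fell and 5 did not pass, with a median difference of 0.39, and with median-of-ratios factors the list had 15 higher, 3 lower and a median of 0.61. Thsd4, which promotes fibrillin-1 assembly, averaged 28.2 ± 1.3 RPKM in Ad-KLK8 libraries and 7.36 ± 0.65 RPKM in Ad-control libraries (SD, n = 4; log2 difference 1.81, adjusted p = 3.21e-09). Ltbp2 and Ltbp3, of the latent TGF-beta binding protein family, averaged 83.9 and 74.4 RPKM in Ad-KLK8 libraries, against 40.5 and 39.6 RPKM in Ad-control libraries. The family was not uniform, with Ltbp1 and Ltbp4 named after their values were seen. Ltbp1 fell to 5.94 RPKM in Ad-KLK8 libraries, against 11.7 RPKM in Ad-control libraries (limma adjusted p = 7.39e-05), and Ltbp4 did not pass (limma adjusted p = 0.642). The proteoglycan gene Dcn averaged 1084 ± 46.7 RPKM in Ad-KLK8 libraries and 309 ± 49.2 RPKM in Ad-control libraries. The microfibril-associated glycoproteins went apart, a pair chosen after its values were seen: Mfap2 averaged 3.09 RPKM in Ad-KLK8 libraries and 1.01 RPKM in Ad-control libraries, and Mfap5 7.48 RPKM in Ad-KLK8 libraries and 17.1 RPKM in Ad-control libraries.

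Of 14 tested genes that activate lysyl oxidases or supply copper, 8 were higher, 4 were lower and 2 did not pass (median 0.31). After median-of-ratios scaling 10 were higher and 3 lower. Bmp1, the protease that releases the propeptide of lysyl oxidase, averaged 88.8 ± 3.3 RPKM in Ad-KLK8 libraries and 59.4 ± 4.0 RPKM in Ad-control libraries (SD, n = 4; log2 difference 0.57, adjusted p = 2.55e-06). Its enhancer Pcolce averaged 92.6 ± 4.3 RPKM in Ad-KLK8 libraries and 70.4 ± 2.0 RPKM in Ad-control libraries. Fibronectin, Fn1, averaged 1698 ± 75.5 RPKM in Ad-KLK8 libraries and 1086 ± 19.6 RPKM in Ad-control libraries. Postn, whose product aids proteolytic activation of lysyl oxidase, fell to 1.797 ± 0.361 RPKM in Ad-KLK8 libraries, against 4.85 ± 0.54 RPKM in Ad-control libraries (adjusted p = 3.33e-06).

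Fibrillar collagens are among the other substrates of these enzymes. Of 20 tested genes for these chains and their modification, 10 rose, 5 fell and 5 did not pass (median 0.17), with 13 higher and 2 lower after median-of-ratios scaling. Col1a2 averaged 1131 ± 29 RPKM in Ad-KLK8 libraries and 634 ± 63 RPKM in Ad-control libraries (SD, n = 4; log2 difference 0.84, adjusted p = 1.33e-06), and Col3a1 308.9 ± 32.8 RPKM in Ad-KLK8 libraries and 134.3 ± 10.2 RPKM in Ad-control libraries. Crtap, part of the prolyl 3-hydroxylation complex, averaged 167 RPKM in Ad-KLK8 libraries and 81.6 RPKM in Ad-control libraries. P4ha2, a prolyl 4-hydroxylase subunit, averaged 43.8 RPKM in Ad-KLK8 libraries and 78.3 RPKM in Ad-control libraries (adjusted p = 3.94e-06).

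Among 17 tested elastin-degrading proteases, inhibitors and elastin receptor genes, 8 rose, 6 fell and 3 did not pass (median 0.07; 10 higher and 5 lower after median-of-ratios scaling). The metalloproteinase genes Mmp14 and Mmp2 averaged 235 and 256 RPKM in Ad-KLK8 libraries, against 124 and 148 RPKM in Ad-control libraries. The inhibitor genes Timp3 and Timp2 averaged 477 and 446 RPKM in Ad-KLK8 libraries, against 93.2 and 185 RPKM in Ad-control libraries (adjusted p = 1.71e-09 and 4.9e-09). The elastases Mmp12 and Mmp9, named after their values were seen, fell to 0.929 and 1.06 RPKM in Ad-KLK8 libraries, against 4.88 and 4.08 RPKM in Ad-control libraries. The leukocyte markers had a summed level of 69.3 to 103 RPKM in Ad-KLK8 libraries and 113 to 250 RPKM in Ad-control libraries. Most of that sum was Lyz2, at 55.1 to 86.2 RPKM in Ad-KLK8 libraries and 89.4 to 207 RPKM in Ad-control libraries. Of 4 tested markers 3 were lower, beside 52.0% of all tested genes, or 2 after median-of-ratios scaling, beside 37.2%. The part of leukocytes in the Mmp12 and Mmp9 results was not tested. For the TGF-beta list, 6 of 18 tested genes rose, 5 fell and 7 did not pass (median 0.06), whereas scaling by median of ratios gave 13 higher and 3 lower. The co-receptor Tgfbr3 averaged 42.9 RPKM in Ad-KLK8 libraries and 23.1 RPKM in Ad-control libraries, and the ligand Tgfb3 27.4 RPKM in Ad-KLK8 libraries and 15.0 RPKM in Ad-control libraries. The other ligands, named after their values were seen, went apart. Tgfb2 rose to 13.4 RPKM in Ad-KLK8 libraries, against 7.37 RPKM in Ad-control libraries. Tgfb1 fell to 26.3 RPKM in Ad-KLK8 libraries, against 40.4 RPKM in Ad-control libraries (limma adjusted p = 1.55e-05). The integrin subunit genes Itgb5 and Itgb3 went apart, with Itgb5 at 44.0 RPKM in Ad-KLK8 libraries and 28.1 RPKM in Ad-control libraries, and Itgb3 at 1.92 RPKM in Ad-KLK8 libraries and 6.44 RPKM in Ad-control libraries.

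**Figure D4:**
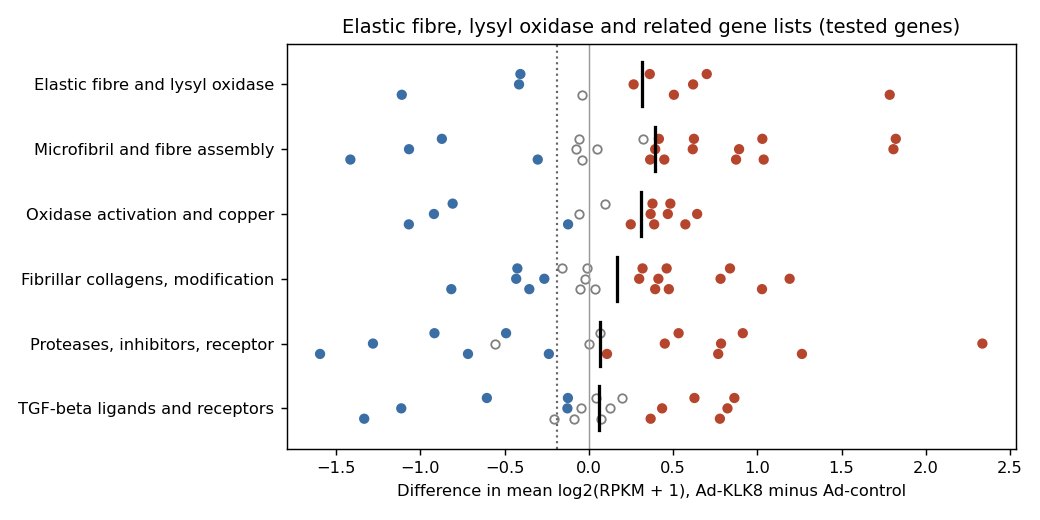
Difference in mean log2(RPKM + 1), Ad-KLK8 minus Ad-control, of each tested gene in the 10-gene set and 5 related lists; red and blue points passed an adjusted p of 0.05 as higher and lower, open points did not, black bars are list medians and the dotted line is the median of all tested genes at −0.19. The medians run from 0.06 for the TGF-beta list to 0.39 for microfibril and fibre assembly.

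Most fibroblast and mesothelium markers were higher. The marker counts stand beside 25.7% higher and 52.0% lower of all tested genes, or 40.0% and 37.2% after median-of-ratios scaling. In both groups the fibroblast and mesothelium sums were far above the endothelial sum. That sum was 14.4 to 17.8 RPKM in Ad-KLK8 libraries and 26.1 to 28.3 RPKM in Ad-control libraries. The summed level of 8 fibroblast markers was 3520 to 3632 RPKM in Ad-KLK8 libraries and 1623 to 1846 RPKM in Ad-control libraries, with 7 higher and Thy1 lower. Most of that sum came from Dcn, Col1a1 and Col1a2, which also belong to the lists above. They averaged 1084, 1035 and 1131 RPKM in Ad-KLK8 libraries, against 309, 608 and 634 RPKM in Ad-control libraries. The 5 mesothelium markers summed to 541 to 590 RPKM in Ad-KLK8 libraries and 161 to 209 RPKM in Ad-control libraries, with 4 higher and Krt19 lower. In Ad-KLK8 libraries most of that sum was Upk3b, which averaged 405 RPKM, against 69.9 RPKM in Ad-control libraries. Krt19 fell to 0.758 RPKM in Ad-KLK8 libraries, against 22.5 RPKM in Ad-control libraries (log2 difference −3.68, limma adjusted p = 7.51e-08). The fibroblast and mesothelium tallies were both the same after median-of-ratios scaling. For 7 smooth muscle and pericyte markers the sums overlapped, at 805 to 1096 RPKM in Ad-KLK8 libraries and 698 to 1024 RPKM in Ad-control libraries, and of 5 tested none rose and 2 fell, Myh11 and Cnn1. Median-of-ratios scaling turned that tally round, with Tagln (0.54, adjusted p = 0.00345) and Des (0.20, adjusted p = 0.00642) higher, Myh11 lower and Cnn1 not passing (−0.40, adjusted p = 0.0725). The 6 epithelial markers summed to 13.6 to 20.2 RPKM in Ad-KLK8 libraries and 7.08 to 15.4 RPKM in Ad-control libraries. That sum was mostly Krt8, which rose to a mean of 15.5 RPKM in Ad-KLK8 libraries, against 8.94 RPKM in Ad-control libraries. Sftpc averaged 1.01 RPKM in Ad-KLK8 libraries and 2.38 RPKM in Ad-control libraries and did not pass (adjusted p = 0.225). Epcam, at 0.0530 RPKM in Ad-KLK8 libraries and 0.224 RPKM in Ad-control libraries, was too low to be tested. So were Sftpb, at 0.104 RPKM in Ad-KLK8 libraries and 0.729 RPKM in Ad-control libraries, and Cdh1, at 0.0212 RPKM in Ad-KLK8 libraries and 0.0770 RPKM in Ad-control libraries. Scgb1a1 had no read in any library. The part of any of these cell types in the results for elastic fibre genes was not tested.

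The genes whose levels across the 8 libraries were most like Eln, among 11166 genes averaging 1 RPKM or more, were Adamts1, Tmem180 and Cyp51, with a Pearson's r of log2(RPKM + 1) of 0.991, 0.987 and 0.982. Without library Ad-KLK8 2 the values were 0.951, 0.959 and 0.973. The genes most like Lox were Jph2, Fkbp11 and Ndrg2, with r of 0.966, 0.960 and 0.956. Each of these points shares its library with both genes compared, and the best of many genes is high by selection.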

How the data were processed

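The authors deposited 1 table of RPKM values for 21878 genes in 8 libraries, 4 per group. Per the labels' protocols, TRIzol was used for total RNA and a TruSeq Stranded mRNA kit for the libraries. Per the submitters' processing notes, the tools were HISAT2, Cufflinks, DESeq, SAMtools and Trimmomatic, without roles, and the build GRCh38. How reads of related genes were assigned is not stated. The members and gene lists were chosen with earlier results of these data known.

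The deposited RPKM were whole multiples of 1 read (tolerance 0.001 read) for all 17461 genes above 0, which gave reads per gene. Dates stood for 12 gene names, restored by Entrez identifier. The comparison was Ad-KLK8 over Ad-control with limma 3.58.1 in R 4.3.3 (empirical Bayes with trend) on log2(RPKM + 1) over the 11998 genes averaging 0.5 RPKM or more, two-sided, with Benjamini-Hochberg adjustment. Ratios were tested by exact permutation in Python 3.11.15. The scripts were tested on simulated data. Intervals cover 95%. Fixed by rule, the named genes were the 10 members, Klk8, up to 4 genes per list with the smallest adjusted p, and the 3 genes most like Eln and Lox. Cell type markers, and genes said to be so in the text, were named after their values were seen. Alternatives were other pseudocounts, filters, scalings, voom on recovered reads, a replicate block and leaving out libraries. Averaging closely similar libraries was added after seeing the data.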

Additional observations from a re-analysis of the deposited data

Results flagged for a closer look

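Of 82 groups of 4 values examined, 9 had 1 library farther from the rest than Dixon's 95% limit on the gap over the range. For a single group, chance alone flags about 1 in 20. The groups were not independent, since ratios and shares were examined beside the genes that make them up. The 9 therefore cannot be set against that rate. Library Ad-KLK8 2 gave 7 of the 9. It was highest of its group for Eln (5.11 RPKM against 1.49 to 1.82 in the other 3), for Klk8 (3263 against 1159 to 1354 RPKM), for Loxl2 (111 against 101 to 103 RPKM) and for the log2 ratio of Eln to Fbn1 (−2.83 against −4.07 to −3.94). It was lowest for Col3a1 (260 against 320 to 331 RPKM), Timp3 (403 against 499 to 504 RPKM) and Itgb5 (40.2 against 45.0 to 45.5 RPKM). Library Ad-KLK8 3 was highest of its group for Fbn2 (0.853 against 0.726 to 0.744 RPKM). Library Ad-control 2 was highest of its group for Itgb3 (8.52 against 5.56 to 5.94 RPKM).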

How the results depend on the processing

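Counts over all genes moved with the scaling: 3079 genes were higher as deposited, 4797 after median-of-ratios scaling, 4791 after upper-quartile scaling and 4917 after quantile normalization. With a filter at 5 RPKM, 4091 genes were lower instead of 6243, since fewer genes were tested. That filter left 6 of the 10 genes in the test, without Fbn2 and Loxl4, and 1 instead of 3 was lower. After quantile normalization all 10 were tested and 1 was lower, as Fbn2 and Loxl3 lost their calls. Leaving out 1 library gave 4 to 6 higher and 3 lower. Loxl2 turned positive after median-of-ratios (0.20) and upper-quartile scaling (0.20), and ranged from −0.089 to 0.015 when 1 library was left out. The ratio of Eln to Fbn1 ranged from −0.11 to 0.31 without 1 library. The causes were not tested. The replicate numbers were not taken as pairs, as same-numbered libraries deviated with r of −0.09 to 0.01 and did not each correlate best with their own number. With the replicate block 3007 genes were higher and 6163 lower, and 6 and 3 of the 10. Paired by number, the log2 ratios kept their values of −0.91 (Fbn2 to Fbn1) and −1.52 (Lox to Loxl1), with an exact p of 0.125, the smallest possible. Without 1 library they were −0.95 to −0.86 and −1.62 to −1.41, each with an exact p of 0.0286, the smallest 7 libraries allow. Precision of Eln, Fbn2 and Loxl4 is limited by their low reads.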
